A study of Mus musculus with 21 samples.

Results

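The regions described here are the H3K4me1 regions nearest to replication-dependent histone genes in mouse embryonic stem cells. They were taken from the table of all regions as those whose nearest gene name starts with Hist1, Hist2, Hist3 or Hist4 and whose distance to that gene's start site is at most 50 kb. This gave 109 of 186826 regions, assigned to 54 histone gene names. The rule used names and distances, and no measured level.

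Replication-dependent histone genes supply the H2A, H2B, H3, H4 and linker H1 proteins that package newly copied DNA, and they are transcribed mainly in S phase. They lie in clusters of intronless genes, and their mRNAs end in a conserved stem-loop instead of a poly(A) tail. H3K4me1, monomethylation of lysine 4 on histone H3, is found at enhancers and on the flanks of active promoters, and MLL3 and MLL4 (gene names Kmt2c and Kmt2d) are its main writers at enhancers. Active promoters carry mostly trimethylation of the same lysine, which other methyltransferases write.

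The assay was CUT&RUN, in which an antibody tethers a nuclease that releases the bound chromatin for sequencing. There were 4 genotypes in 2 states, naive cells and formative cells taken 63 h after LIF and 2i were withdrawn, with 2 separately cultured H3K4me1 libraries in each of the 8 groups. Wild-type cells were of line R1. The line called floxed here is labelled MLL3KO_MLL4fl, a knockout of MLL3 with a floxed MLL4. DKO is labelled MLL3KO_MLL4KO, so it and the floxed line both lack MLL3. The genotype called dCD is labelled MLL3CD_MLL4CD, in line R1. The labels do not spell out CD, which earlier work on these lines uses for catalytic deficiency. The floxed line and DKO carry no line label, and the number of clones behind a genotype is not given. The deposited table holds 1 merged column per group, so the spread between the 2 libraries is not visible and no difference between groups could be tested here. Differences are given as values beside the same measure over all regions. The labels give the H3K4me1 antibody 2 different catalogue numbers. The protocol's number belongs to an antibody sold against H3K27ac, while the number in the sample characteristics belongs to one sold against H3K4me1. The sources used here do not settle which of them was applied, so every H3K4me1 value below is of the mark as labelled.

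The 109 regions fell into the 4 known clusters. The main Hist1 cluster on chromosome 13 held 83 regions with 42 gene names, the Hist2 cluster on chromosome 3 held 14 regions with 8, the Hist3 pair on chromosome 11 held 4 regions with 2, and Hist4h4 on chromosome 6 held 2 regions. The other 6 regions lay around Hist1h2al, a processed pseudogene in the annotation that sits near 51 Mb of chromosome 13, away from the cluster. By class, 41 regions were nearest to an H2B gene, 24 to an H4 gene, 22 to an H2A gene, 11 to an H3 gene and 11 to an H1 gene. Start sites were close: 28 regions lay within 1 kb of one, 43 at 1 to 5 kb and 38 at 5 to 50 kb. Of the 109 regions, 50 overlapped an annotated histone gene, and 18 of these overlapped 2 or more genes, up to 4. Neighbouring genes of the cluster therefore share regions, and the gene name of a region is only that of the nearest start site as deposited. Deposited names do not always match the gene positions used here. The region named for Hist1h2br at chr13:21806967-21808344 lies within the annotated Hist1h2bq. That named for Hist1h2bq at chr13:21835591-21837494 lies within the annotated Hist1h2br. The farthest member lay 26.7 kb from a start site and the nearest region outside the limit 77.4 kb, both of them around Hist1h2al.

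The stem-loop that marks these genes was searched as GGNNCTTTTNAGNGCC, on the gene's strand, in the gene and 150 bases past its end. It was found in 48 of the 54 member genes, in 5 forms. These are shown because they are the feature the genes share that the rule did not use, with the loop in capitals. The copy of Hist1h1a lies at chr13:23764392-23764407 on the plus strand of GRCm38.
Form of 29 genes, Hist1h1a and Hist3h2a among them: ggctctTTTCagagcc
Form of 9 genes, Hist1h2ba among them: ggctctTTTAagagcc
Form of 7 genes: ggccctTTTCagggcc
Form of 2 genes, Hist2h4 among them: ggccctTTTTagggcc
Form of 1 gene, Hist1h2bn: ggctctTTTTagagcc
The 5 forms differ only within the loop and at paired positions of the stem. The search let only the letters written N vary, so a form that differs elsewhere could not have been found. The 6 names without a match were Hist2h2be, Hist1h4j, Hist1h3g, Hist1h4b, Hist1h4a and the pseudogene Hist1h2al. A missing match says only that these letters are not in the window searched.

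Promoters, 250 bases before to 50 after the start, were found in RefSeq (build GRCm38.p6) for 49 of the 54 genes. The 4 printed here belong to genes of 4 classes whose start-site region had at least 2-fold more H3K4me1 in at least 1 mutant comparison below. Capitals mark 4 promoter elements, searched on both strands, and each was counted whether or not it overlapped another. The TATA box was searched as TATAAA. For the CCAAT box its own letters were used. The octamer was searched as ATTTGCAT. For the H1 box of linker histone genes the letters were AAACACA.
Hist1h1a, linker H1, chr13:23763418-23763717, plus strand: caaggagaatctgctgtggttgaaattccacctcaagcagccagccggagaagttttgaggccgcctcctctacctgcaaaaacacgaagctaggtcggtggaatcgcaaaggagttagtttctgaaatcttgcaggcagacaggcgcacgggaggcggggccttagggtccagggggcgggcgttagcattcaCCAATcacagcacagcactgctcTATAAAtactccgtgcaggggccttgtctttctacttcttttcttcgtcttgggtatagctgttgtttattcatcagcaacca
Hist3h2a, H2A, chr11:58954435-58954734, plus strand: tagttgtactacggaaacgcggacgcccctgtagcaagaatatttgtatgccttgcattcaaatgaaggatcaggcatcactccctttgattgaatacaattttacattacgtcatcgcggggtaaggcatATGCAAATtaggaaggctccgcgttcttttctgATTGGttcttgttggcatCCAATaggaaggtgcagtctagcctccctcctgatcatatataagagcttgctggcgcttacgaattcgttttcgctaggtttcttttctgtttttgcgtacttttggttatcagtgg
Hist1h2ba, H2B, chr13:23934107-23934406, minus strand: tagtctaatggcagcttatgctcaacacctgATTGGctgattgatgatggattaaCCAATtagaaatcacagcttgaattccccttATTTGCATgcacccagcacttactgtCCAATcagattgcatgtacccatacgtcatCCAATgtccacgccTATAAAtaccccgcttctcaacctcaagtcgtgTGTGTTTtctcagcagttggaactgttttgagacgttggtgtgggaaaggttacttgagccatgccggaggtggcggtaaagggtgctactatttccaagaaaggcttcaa
Hist1h3d, H3, chr13:23575513-23575812, plus strand: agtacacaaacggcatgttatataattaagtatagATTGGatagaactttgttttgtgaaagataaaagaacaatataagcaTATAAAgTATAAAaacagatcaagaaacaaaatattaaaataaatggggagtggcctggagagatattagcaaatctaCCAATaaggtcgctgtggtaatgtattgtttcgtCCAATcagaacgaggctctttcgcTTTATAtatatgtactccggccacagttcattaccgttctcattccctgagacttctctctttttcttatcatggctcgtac
CCAAT occurred in 41 of the 49 promoters (83.67%), against 37.92% of the 27025 RefSeq promoters of the same length. All promoters of the H1, H2A, H2B and H3 classes held it, and 3 of 11 H4 promoters did. TATAAA occurred in 55.1% of the member promoters against 14.16% of all. The octamer, the sequence bound by POU factors such as Oct1, was found in 5 of 10 H2A and 6 of 15 H2B promoters and in no promoter of the other classes, against 1.754% of all promoters. AAACACA was found in 4 of 5 H1 promoters, not including that of Hist1h1a, and in 7.138% of all. Promoter windows of some neighbouring H2A and H2B genes overlap, so the same match can be counted for both genes. Pairs with the octamer in both windows are Hist1h2aa and Hist1h2ba, Hist1h2ae and Hist1h2bg, and Hist1h2ah and Hist1h2bk. A match is a description of letters and not a measured binding site.

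Values are given as normalized reads in a region, recovered from the deposited levels, and as differences of those levels, which are on a log2 scale. A difference of 1 is a 2-fold difference, which served as the threshold for a called region. The members, at every distance together, were covered about as deeply as regions within 1 kb of any gene's start site. The members' median was 52.1 normalized reads in naive wild type and 60.3 in formative wild type. It was 62.7 and 65 in the naive and formative floxed line, 76.7 and 88.3 in DKO, and 70.9 and 82.5 in dCD. Over all regions the mutants had instead the lowest medians, 31.6 and 30.6 in naive and formative DKO and 31.5 and 29.6 in dCD, against 39.2 and 37.7 in wild type. Of the members, 6 stayed under 32 reads in every group. In 41 regions over 10% of the 32-base words occur more than once in the genome, and in 7 regions, among them those of the Hist1h2bq and Hist1h2br copies, all do. How reads that match several places were handled is not given in the sources used here.

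Cell states were checked on marker genes. From naive to formative wild type, the 88 regions of the naive markers Tfcp2l1, Zfp42, Esrrb and Klf4 had a median difference of -0.81. The 41 regions of the formative markers Fgf5, Otx2, Pou3f1 and Dnmt3b had one of 0.51. Not every marker moved in the mark. Mean differences were near 0 for Esrrb (0.004), Otx2 (0.014) and Dnmt3b (0.07). Those of Tfcp2l1, Zfp42 and Klf4 lay from -1.33 to -0.73, and those of Fgf5 and Pou3f1 were 1.59 and 0.905. In the authors' deposited table, RNA of Tfcp2l1 was lower by a log2 fold of -2.86 and RNA of Fgf5 higher by 6.09 in the same comparison. RNA of Esrrb, Zfp42 and Klf4 had log2 folds of -3.98, -2.78 and -0.87, and that of Pou3f1 5.24. No RNA value was given for Otx2 and Dnmt3b.

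The first question was how the mark at histone genes of wild-type cells differed from one state to the other. The members were slightly higher in formative cells, with a median difference of 0.27 against -0.03 over all regions, and 79 of 109 lay above 0. This was not particular to histone genes. Regions of non-histone genes beside the clusters, described below, had a median of 0.22, with 63 of 85 above 0. Start-site regions of all genes had median reads of 54.7 in naive and 61.6 in formative wild type. The members within 1 kb of a start site had 61.8 and 66.5. Few crossed the 2-fold threshold: 6 were at least 2-fold higher, where 11.1% of all regions were, and 4 at least 2-fold lower, where 11.4% of all regions were. These shares of the members, 5.50% and 3.67%, lie below the background in both directions. Of the 6 higher members, 3 had at least 32 reads in 1 of the states. No start-site region was among them. The medians of the H3 and H4 regions were 0.46 and 0.37, and those of the H1, H2A and H2B regions 0.17, 0.25 and 0.14.

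The region beyond Hist2h2be, an H2B gene whose mRNA is known to be polyadenylated as well, was the best supported gain. This region, chr3:96223780-96228374, lies 5.0 kb from the start site and overlaps no histone gene. It had 86.5 reads in naive and 189 in formative wild type, 104 and 179 in the floxed line, 119 and 145 in DKO, and 76.2 and 95.2 in dCD. Both control lines were thus well apart between the states, while DKO and dCD lay closer together. The authors' deposited table gives its wild-type change a log2 fold of 1.14 and an FDR of 3.8e-05. Next to Hist1h3c, an H3 gene, the intergenic region chr13:23741019-23744545 had 56.7 and 134 reads in naive and formative wild type, 80.9 and 109 in the floxed line, 106 and 117 in DKO, and 89.7 and 98.9 in dCD. For this region the authors' deposited table lists an FDR of 0.00148.

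The regions lost in the transition lay away from start sites. Near Hist1h2bn, an H2B gene, chr13:21758649-21762443 had 91.9 reads in naive and 40.5 in formative wild type, and 89.5 and 32.8 in the floxed line. In DKO it had 57.9 and 41.0 reads, and in dCD 43.8 and 39.4. Naive dCD was thus already near the formative level, while naive DKO lay between the naive and formative levels of wild type. An intronic region named for Hist1h2be, chr13:23599820-23602381, had 66.9 and 27.7 reads in wild type, 64.0 and 29.1 in the floxed line, 31.8 and 29.7 in DKO, and 39.1 and 33.8 in dCD. In that region 60.0% of the 32-base words are repeated. The region chr13:51190739-51192883 near the pseudogene Hist1h2al had 52.8 and 23.4 reads in wild type and 44.6 and 18.1 in the floxed line, against 20.4 and 20.2 in DKO and 30.3 and 18.0 in dCD. Over all members, the authors' deposited table holds 8 regions with an FDR under 0.05 for wild type, 5 gained and 3 lost, where 9.82% of all regions were gained and 10.5% lost. The 5 gained were named for Hist2h2be, Hist1h3c, Hist1h3i, Hist1h4n and Hist1h4j, and the 3 lost for Hist1h2bn, Hist1h2be and Hist1h2al.

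The members' transition was also described in the other lines. The median was 0.18 in the floxed line, with 3 regions at least 2-fold higher and 5 lower (background 9.33% and 10.6%). It was 0.26 in dCD, with 3 higher and 1 lower (background 1.37% and 2.47%), and 0.10 in DKO, with 1 higher and 1 lower (background 1.2% and 1.25%). In dCD all 4 of the called regions had under 32 reads in both states. The transitions were not compared with each other by a test.

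**Figure D1:**
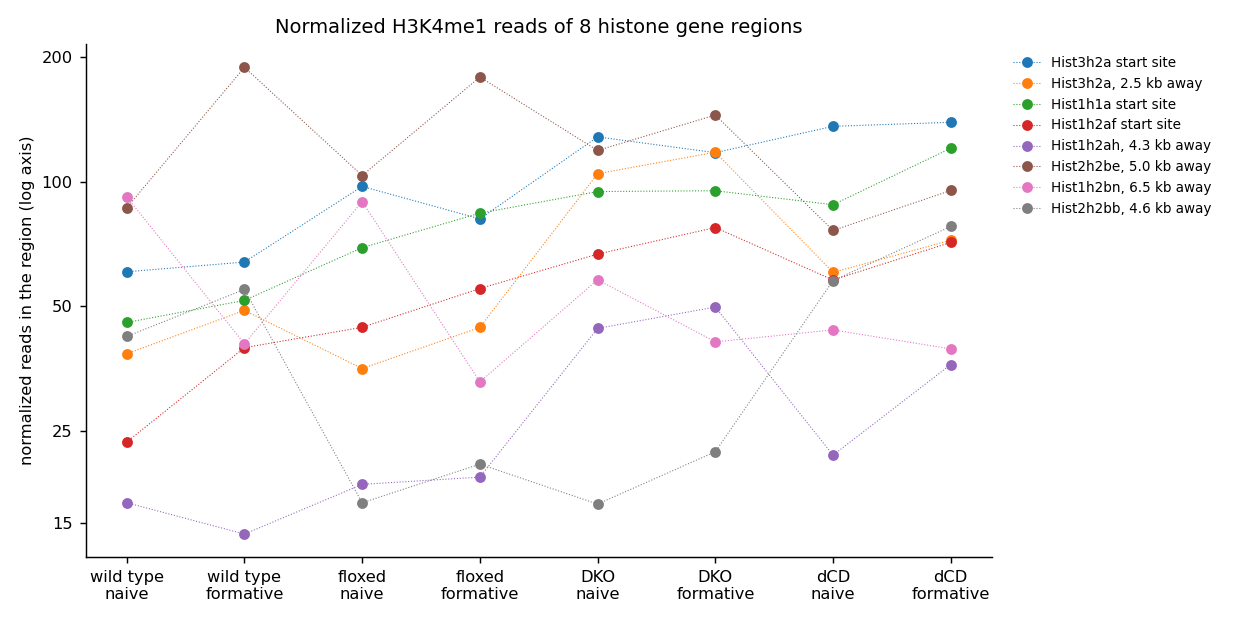
Normalized H3K4me1 reads (log axis) of 8 histone gene regions in each of the 8 groups, 1 merged value per group; dotted lines only join the points of 1 region. The start-site regions of Hist3h2a, Hist1h1a and Hist1h2af lie higher in DKO and dCD than in wild type, and the Hist2h2bb region is low in the floxed line and DKO, at 16.6 to 22.2 reads.

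The second question was how the mark differed where both MLL3 and MLL4 were lost, in DKO against the floxed line of the same state. Most histone gene regions were higher in DKO, while most regions of the genome were lower. In naive cells the members' median difference was 0.43, against -0.18 over all regions, and 86 of 109 lay above 0. At least 2-fold higher were 8 members, where 4.36% of all regions were, and 1 was at least 2-fold lower, where 15.9% of all regions were. In formative cells the median was 0.31 against -0.13, with 84 of 109 above 0. There, 7 members were at least 2-fold higher (background 6.47%), 4 without the pseudogene and testis genes, and 1 was lower (background 16.7%). The counts of higher members are close to those backgrounds, while their median and their few lower regions differ from the background. Centring each group on its median over all regions removes shifts of -0.21 in both states here, and of -0.35 and -0.40 in the naive and formative comparisons of dCD with wild type. It raises every value below by that size, so medians a little under 0 turn positive, and it puts 15.6% of the members past 2-fold higher and 0% past 2-fold lower in naive DKO, where it puts 8.06% and 10.6% of all regions. In formative dCD it puts 32.11% and 0% of the members there, and 10.8% and 9.69% of all regions.

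The Hist3 pair, an H2A and an H2B gene on chromosome 11, held the largest differences in naive cells. The region 2.5 kb from the start of Hist3h2a, chr11:58956441-58957961, had 38.4 reads in naive and 48.9 in formative wild type, 35.3 and 44.4 in the floxed line, 105 and 118 in DKO, and 60.4 and 72.2 in dCD. DKO had the highest reads in both states, exceeding the floxed line by 1.55 in the naive state and by 1.40 in the formative state. The neighbouring region chr11:58950113-58950800, 1.5 kb from the start of Hist3h2ba, had 11.0 reads in the naive floxed line and 40.3 in naive DKO, a difference of 1.86. In formative cells the difference was -0.01, with 31.7 reads in DKO. It had 3.7 and 16.1 reads in naive and formative wild type and 10.2 and 22.7 in dCD. In the naive state it was thus also higher than wild type in dCD, by 1.44, and in the floxed line, by 1.55, at under 32 reads in all 3 of these groups.

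Other members past the threshold lay between genes of the Hist1 cluster. The region chr13:22031019-22031764, 4.3 kb from Hist1h2ah, an H2A gene, had 16.8 and 14.1 reads in naive and formative wild type, 18.6 and 19.3 in the floxed line, 44.2 and 49.8 in DKO, and 21.8 and 36.1 in dCD. DKO exceeded the floxed line there by 1.25 in the naive state and by 1.36 in the formative state. Near Hist1h4k, an H4 gene, chr13:21747065-21748051 had 20.7 and 18.2 reads in the floxed line and 39.9 and 49.2 in DKO, differences of 0.94 and 1.42. Near Hist1h4h, also an H4 gene, chr13:23523970-23526142 had 41.0 and 65.6 reads in the floxed line and 95.6 and 114 in DKO, which was 2.30-fold and 1.72-fold higher. The start-site region shared by Hist1h2ba and Hist1h2aa, known as testis-expressed H2B and H2A genes, had 55.5 and 27.3 reads in the floxed line and 71.5 and 66.7 in DKO, differences of 0.36 and 1.26.

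Some called regions lie in repeated sequence. Those named for Hist1h2bq, with 33.1 reads in the naive floxed line and 69.2 in naive DKO, and for Hist1h2br, with 22.2 and 60.0 reads in formative cells, consist wholly of repeated 32-base words and cannot be assigned to 1 gene copy. Around the pseudogene Hist1h2al the regions went both ways. The region at chr13:51190739-51192883 was lower in naive DKO by -1.09, and that at chr13:51228734-51230745, with 31.4 reads in the formative floxed line and 90.6 in formative DKO, was higher by 1.51.

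The third question was how the mark differed in dCD, against wild type of the same line label. These 2 groups share no library with DKO and the floxed line. The members' median difference was 0.44 in naive cells, against -0.29 over all regions, with 79 of 109 above 0. It was 0.40 in formative cells, against -0.29 over all regions, with 76 of 109 above 0. At least 2-fold higher were 4 members in naive cells (background 1.55%) and 8 in formative cells (background 2.59%). At least 2-fold lower were 2 in naive cells (background 13.9%) and 1 in formative cells (background 20.1%).

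Start-site regions made up most of these. That of Hist1h1a, a linker histone gene, also covers Hist1h3a and had 45.7 and 51.7 reads in naive and formative wild type, 69.3 and 83.9 in the floxed line, 94.7 and 95.1 in DKO, and 88.0 and 120 in dCD. In dCD it was 1.90-fold higher than in wild type when naive and 2.29-fold higher when formative, while the log2 differences of DKO from the floxed line were 0.44 and 0.18. That of Hist1h2af, an H2A gene, had 23.5 and 39.7 reads in wild type, 44.5 and 55.2 in the floxed line, 66.8 and 77.5 in DKO, and 57.9 and 71.3 in dCD. Its log2 differences of dCD from wild type were 1.29 and 0.84 for the naive and the formative state. The start-site region of Hist3h2a had 60.6 and 63.9 reads in wild type, 97.4 and 81.3 in the floxed line, 128 and 118 in DKO, and 136 and 139 in dCD. It was higher in dCD than in wild type by 1.14 and 1.10, and wild type was the lowest of the 4 genotypes in both states. That of Hist1h3d, an H3 gene, had 38.3 and 48.2 reads in wild type and 71.5 and 97.6 in dCD.

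The lower members in dCD were named for H2B genes. The region near Hist1h2bn described above was lower in naive dCD by -1.02. In an annotated intron, the Hist1h2be regions chr13:23587786-23589898 and chr13:23590801-23593749 were lower by -1.03 in naive and by -1.39 in formative cells, respectively. The second had 43.2 and 75.3 reads in naive and formative wild type, 36.2 and 56.2 in the floxed line, 29.2 and 36.9 in DKO, and 22.7 and 27.7 in dCD. Both mutants were below both control lines in this region in each state.

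**Figure D2:**
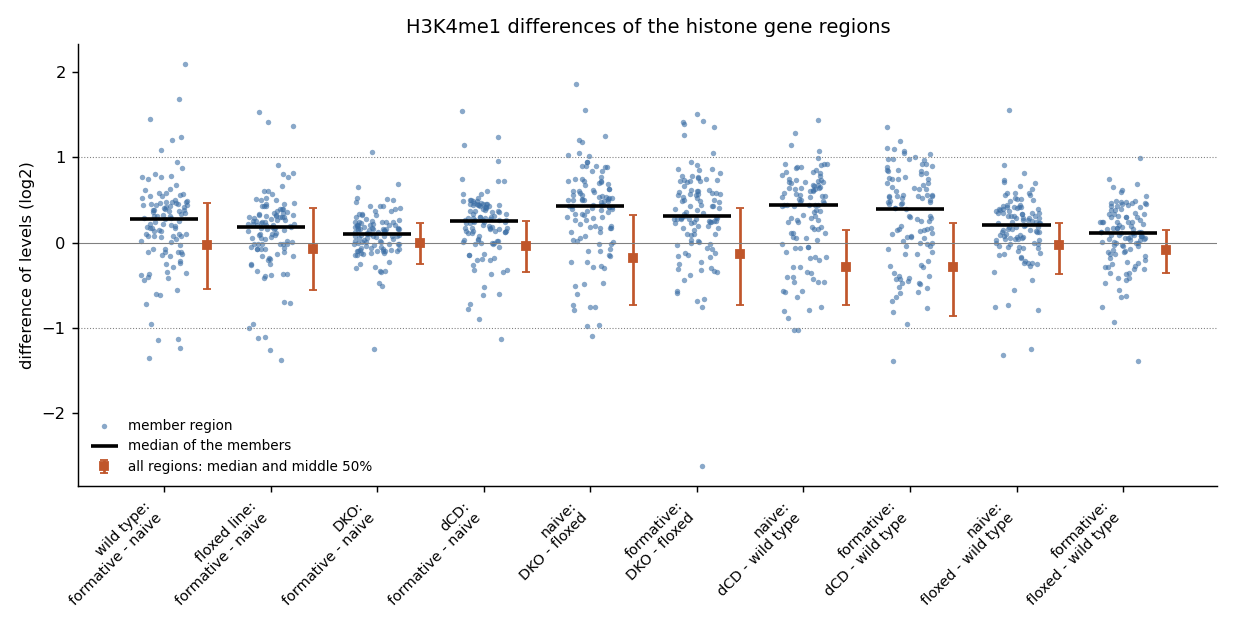
Differences of H3K4me1 levels (log2) of the 109 histone gene regions in 10 comparisons, each point 1 region and each black bar the members' median. Orange squares and bars give the median and the middle 50% over all regions, and dotted lines mark 2-fold. In the 4 mutant comparisons the members' medians lie between 0.31 and 0.44 and the medians of all regions below 0.

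Across the members, distance to the start site ordered the differences. All 28 regions within 1 kb of a start site were above 0 in each of the 4 mutant comparisons, where 76.6% to 77.5% of the 10671 such regions of all genes were in each one. Their medians were 0.52 and 0.50 for DKO over the floxed line in naive and formative cells, and 0.69 and 0.75 for dCD over wild type. The same medians over all genes were 0.38, 0.40, 0.41 and 0.47. At 1 to 5 kb the members' medians were 0.51, 0.38, 0.47 and 0.30, where regions of all genes had 0.08, 0.15, 0.00 and 0.11. At 5 to 50 kb they were 0.04, 0.12, -0.19 and -0.03, against -0.26, -0.13, -0.37 and -0.29. The largest gap between members and other genes was thus at 1 to 5 kb in naive cells.

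In all 4 mutant comparisons together, 59 of the 109 members (54.1%) were above 0, where 14.0% of all regions and 59.4% of the start-site regions of all genes were. At 1 to 5 kb the share was 26 of 43 (60.5%), against 31.1% of all genes' regions at that distance. At least 2-fold higher in any of the 4 comparisons were 19 members, where 12.2% of all regions were, and 5 were at least 2-fold lower in any, where 36.4% of all regions were.

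**Figure D3:**
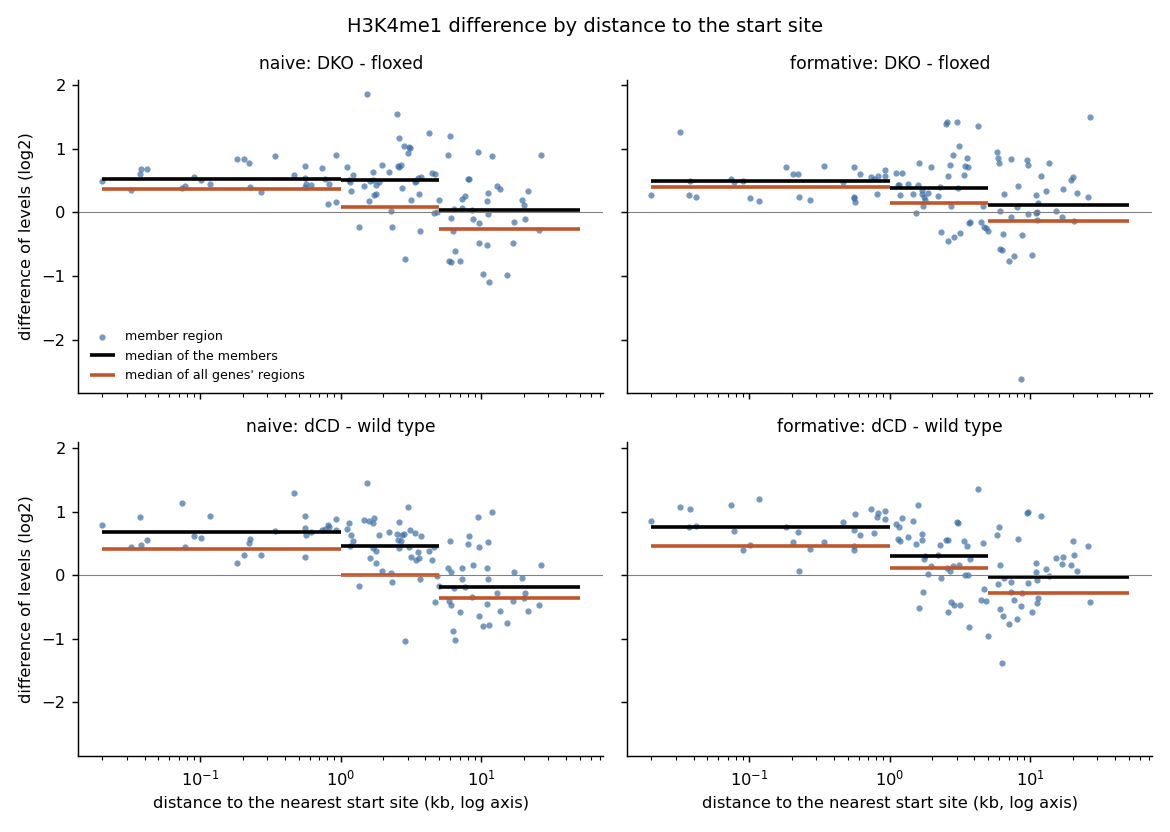
Difference of H3K4me1 levels (log2) of each member against its distance to the nearest start site (kb, log axis), for DKO minus the floxed line and dCD minus wild type in naive and formative cells. Black lines give the members' medians and orange lines those of all genes' regions at the same distance; at 1 to 5 kb in naive cells the members' medians are 0.51 and 0.47, against 0.08 and 0.00.

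CpG content went with the differences. The members within 1 kb had a median of 32 CpG per kb, those at 1 to 5 kb 11.5 and those farther away 10.6. Over the 109 members, Spearman's rho of the difference with CpG density was 0.33 and 0.30 for DKO over the floxed line in naive and formative cells, and 0.47 and 0.56 for dCD over wild type. Over all 186824 regions it was 0.45, 0.51, 0.42 and 0.51. These points share the same merged libraries, and they are given as a description. Among members at 1 to 5 kb with under 10 CpG per kb, 18 regions, the medians were 0.40, 0.30, 0.33 and -0.02, where the 6821 such regions of all genes had -0.20, -0.22, -0.27 and -0.27. The part of CpG content in the members' values was not tested.

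Between DKO over the floxed line and dCD over wild type, which share no library, the members' differences followed each other in naive cells with a Pearson r of 0.70 and a Spearman rho of 0.60 over 109 regions. In formative cells these were 0.54 and 0.53. Over all regions Spearman's rho was 0.64 and 0.74, so the members did not stand out, and all points share the regions and the scaling of the table. Both differences were above 0 in 72 members in naive and 71 in formative cells. The matching shares over all regions are not given here, so whether these counts are particular to the members was not tested. Along the Hist1 cluster, higher regions alternated with stretches of lower ones that hold no start site.

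**Figure D4:**
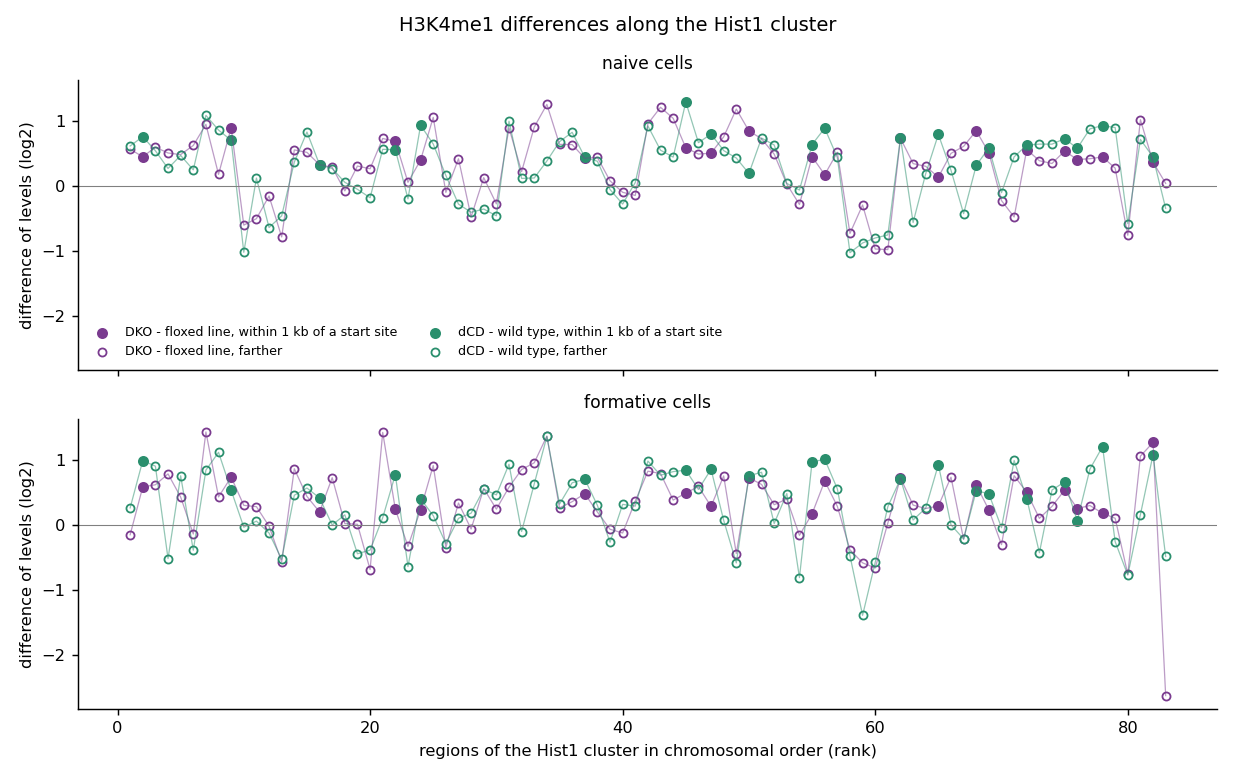
Differences of H3K4me1 levels (log2) of the 83 regions of the Hist1 cluster in chromosomal order, naive above and formative below; purple is DKO minus the floxed line, green dCD minus wild type, and filled points lie within 1 kb of a start site. Every filled point lies above 0, and the points below 0 are farther from a start site; the lowest, -2.62 in formative DKO, is a region near Hist1h2aa with 4.2 reads.

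By histone class, all 11 H3 regions were above 0 in both naive comparisons, with medians of 0.49 for DKO over the floxed line and 0.64 for dCD over wild type. In formative cells 10 and 9 of the 11 were above 0, with medians of 0.43 and 0.48. H4 regions had naive medians of 0.49 and 0.45, H2A regions 0.49 and 0.14, H2B regions 0.34 and 0.38 and H1 regions 0.44 and 0.36. The formative medians were 0.33 and 0.51 for H4, 0.54 and 0.29 for H2A, 0.24 and 0.28 for H2B and 0.18 and 0.40 for H1, so every class median was above 0. Among the H1 genes, the start-site region of Hist1h1c had 63.1 and 91.9 reads in naive and formative wild type, 72.4 and 84.8 in the floxed line, 108 and 121 in DKO, and 98.5 and 122 in dCD. The region of Hist1h1d had 78.5 and 88.7 reads in wild type, 98.5 and 123 in the floxed line, 165 and 190 in DKO, and 133 and 158 in dCD. In both H1 regions each mutant lay above both control lines in both states. The 3 regions of Hist1h1b all lie 3.5 to 9.6 kb from its start site. Their mean differences were -0.13 and 0.09 for DKO over the floxed line, and -0.25 and -0.07 for dCD over wild type. Over the 3 regions of Hist1h1a, its start-site region included, these means were -0.02 and -0.16, and 0.41 and 0.06. Over the 2 regions of Hist1h1t they were 0.72 and 0.19, and -0.06 and 0.15.

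By cluster, the Hist2 regions had medians of 0.52 and 0.26 for DKO over the floxed line and 0.47 and 0.48 for dCD over wild type. The region that covers Hist2h4, an H4 gene, was among the deepest, with 138 and 176 reads in naive and formative wild type, 186 and 188 in the floxed line, 253 and 290 in DKO, and 224 and 275 in dCD. The start-site region of Hist2h2ab, an H2A gene, had 55.4 and 56.3 reads in wild type, 70.9 and 79.0 in the floxed line, 116 and 117 in DKO, and 91.4 and 117 in dCD. Hist4h4 had 85.4 and 116 reads in wild type and 85.0 and 101 in the floxed line at its start, against 146 and 154 in DKO and 122 and 186 in dCD. In each of these 3 regions the mutants had the highest reads. Not every region of these genes went this way. Over the 3 regions named for Hist2h4, DKO minus the floxed line had means of 0.32 (naive) and 0.15 (formative). For dCD minus wild type the means were 0.38 and -0.16. The 6 regions around the pseudogene Hist1h2al had medians of -0.02 and 0.64 for DKO over the floxed line and -0.29 and -0.08 for dCD over wild type.

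The floxed line, which lacks MLL3 only, was set against wild type. The members' median was 0.21 in naive cells, against -0.03 over all regions, and 0.11 in formative cells, against -0.09. At least 2-fold higher was 1 member in naive cells (background 0.864%) and none in formative cells (background 0.526%). At least 2-fold lower were 2 and 1 (background 4.38% and 3.83%). These comparisons share the floxed libraries with DKO over floxed and the wild-type libraries with dCD over wild type. The region chr3:96273558-96275070, 4.6 kb from Hist2h2bb, an H2B gene, was lower in both states, by -1.31 and -1.38. It had 42.2 and 54.9 reads in wild type and 57.7 and 78.0 in dCD, against 16.7 and 20.8 in the floxed line and 16.6 and 22.2 in DKO. Both lines labelled R1 were high and both lines without a line label were low, so genotype and line of origin cannot be told apart there. With wild type as the reference for DKO, 26 members were at least 2-fold higher in naive cells (background 2.54%) and 10 in formative cells (background 4.47%), counts that join both steps and the same difference in line label.

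Non-histone genes beside the clusters were described from a list of 23 names, of which 21 had 85 regions, 4.85 to 225 kb from the nearest histone gene. Their medians were 0.37 and 0.38 for DKO over the floxed line and 0.28 and 0.33 for dCD over wild type, beside 0.43, 0.31, 0.44 and 0.40 for the histone gene regions. Past 2-fold higher were 4.71%, 11.8%, 2.35% and 8.24% of the neighbours' regions, where all regions had 4.36%, 6.47%, 1.55% and 2.59%. Past 2-fold lower were 1, 6, 2 and 7 of the 85 regions (1.18%, 7.06%, 2.35% and 8.24%). All regions had 15.9%, 16.7%, 13.9% and 20.1%, so few lower regions were seen in the neighbours too. Of the 109 histone gene regions 1, 1, 2 and 1 were past 2-fold lower, fewer than of the neighbours' regions in formative cells. Prss16, a serine protease gene beside the Hist1 cluster, had mean differences of 0.57, 0.56, 0.44 and 0.59 over its 7 regions, and Zfp184, a zinc finger gene, 0.42, 0.62, 0.33 and 0.60 over 8. Mtmr11 near the Hist2 cluster went the other way, with -0.43, -0.69, -0.49 and -0.87 over 3.

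Genes that act on replication-dependent histone genes or their products, and replacement histone genes, were described from 3 lists. Their counts in the wild-type transition stand against a background of 11.4% lower and 11.1% higher. For 17 genes of histone transcription and 3' end processing with 116 regions, the wild-type transition had a median of -0.27, with 20 regions (17.2%) past 2-fold lower against 4 (3.45%) past 2-fold higher. The naive and formative medians were -0.20 and 0.09 for DKO over the floxed line, and -0.26 and 0.07 for dCD over wild type. Npat, the coactivator of histone transcription, had a mean difference of -1.04 over its 3 regions in the wild-type transition, and Slbp, the stem-loop binding protein gene, -0.55 over 5. In formative DKO against the floxed line these were higher, by 1.28 and 1.00, the largest means among the 17 genes. The means of E2f1, Lsm11, Pou2f1, Cpsf2 and Lsm10 were below 0 there, from -0.54 to -0.06. Histone chaperone genes had a median of -0.49 in the wild-type transition, with 17 of 73 regions (23.3%) at least 2-fold lower and none higher. Their medians were 0.01 and 0.49 for DKO over the floxed line and -0.26 and 0.14 for dCD over wild type, in naive and formative cells, and 9 regions were at least 2-fold higher and none lower in formative DKO (background 6.47% and 16.7%). Replacement histone genes, which are expressed outside S phase, had -0.32, with 11 of 66 (16.7%) lower and 1 higher. Their medians were -0.04 and 0.20 for DKO over the floxed line and -0.17 and 0.14 for dCD over wild type. In all 3 lists the formative medians of both mutant comparisons lay above 0, and the naive ones were lower.

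The authors' deposited table also gives log2 folds of H3K27ac, a mark of active promoters and enhancers, from samples outside this series. In the authors' deposited table the members' H3K27ac was higher in DKO than in wild type, with a median of 0.87 in naive and 1.41 in formative cells, where all regions had 0.04 and -0.20. At least 2-fold higher were 51 members in naive cells, where 24.7% of all regions were, and 78 in formative cells, where 18.9% were. By distance, the formative medians in the authors' deposited table were 1.51 within 1 kb, 1.67 at 1 to 5 kb and 1.10 at 5 to 50 kb. All 11 H3 regions and 20 of 24 H4 regions were at least 2-fold higher there. In the wild-type transition the members' H3K27ac was lower in the authors' deposited table, with a median of -0.88 against 0.33 over all regions, and 48 members were at least 2-fold lower, where 18.8% of all regions were. The formative comparison and this transition share the formative wild-type value. In DKO the transition had a median of -0.44. Of the clusters, Hist1 had -1.07 in wild type, Hist2 -0.30 and the 4 Hist3 regions 1.81. The H3K27ac values by distance, class and cluster, and the median of the DKO transition, are given without matched values of other genes. Whether they are particular to histone genes was not tested.

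RNA folds of the nearest gene were given for 37 of the 54 member genes, also from samples outside this series. The kind of RNA library is not given in the sources used here, and a poly(A) selection would miss most of these mRNAs. In the authors' deposited table, RNA was higher in formative than in naive wild type, with a median log2 fold of 1.04 against 0.15 over 9140 genes. At least 2-fold higher were 20 of the 37 (background 18.9%) and 2 were lower (background 9.82%). Hist1h4c, an H4 gene, had a log2 fold of 2.00, Hist1h3e, an H3 gene, 2.25 and Hist1h2bj, an H2B gene, 2.68 in the authors' deposited table, while Hist1h1c had -0.14 and Hist2h3c2 -2.79. In DKO the transition median was 0.65, with 14 genes higher and none lower (background 19.8% and 5.2%). DKO against wild type had medians of -0.04 (naive) and -0.44 (formative). For the formative state 2 genes were at least 2-fold higher (background 7.12%) and 8 lower (background 5.8%). Those comparisons share the wild-type samples with the wild-type transition. In the authors' deposited table Hist1h2bj had -1.63, Hist1h4b -1.61 and Hist1h3b -1.55, and Hist2h2be had 2.22. The start-site region of Hist1h3b had more H3K4me1 in formative DKO than in the floxed line, by 0.53, and than in wild type, by 0.65. For this gene the mark and the RNA thus differed in sign against wild type, although they come from different samples.

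**Figure D5:**
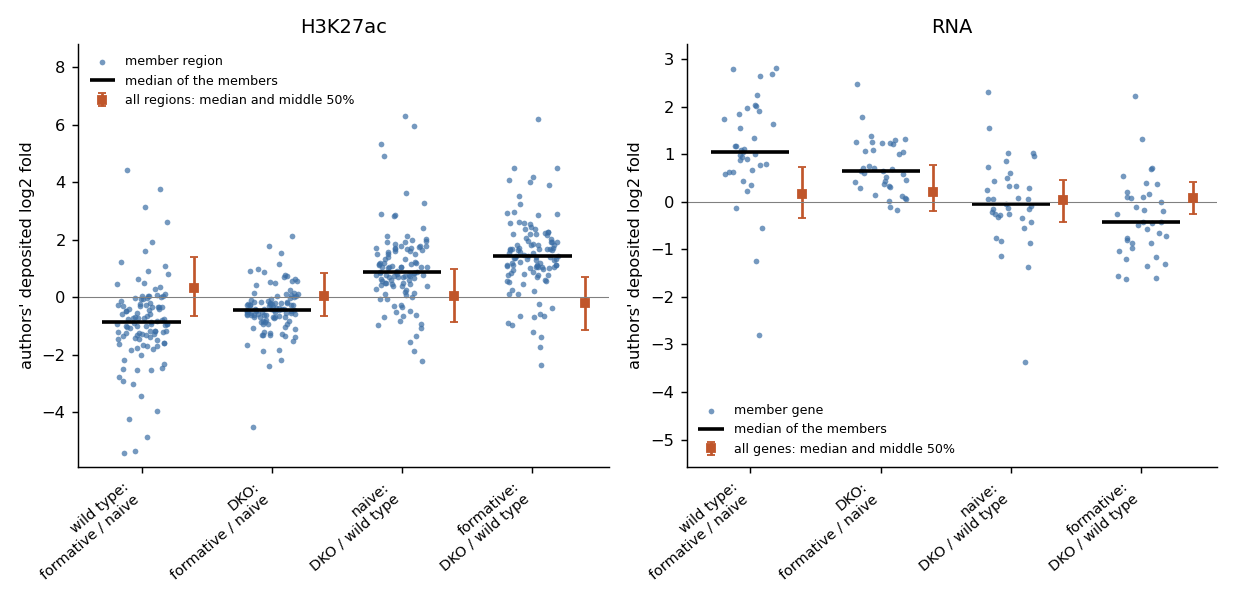
The authors' deposited log2 folds of H3K27ac for the 109 histone gene regions (left) and of RNA for the 37 member genes with a value (right), from samples outside this series. Black bars are members' medians and orange squares with bars the median and middle 50% of all regions or genes. H3K27ac of the members is higher in DKO than in wild type (medians 0.87 and 1.41), and their RNA is higher in formative than in naive wild type (median 1.04).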

How the data were processed

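H3K4me1 was measured by CUT&RUN in 16 libraries, 2 for each of 8 groups. The series holds 21 libraries in all, and its IgG and MLL4 libraries were not analysed here. Per the submitters' processing notes, Trim Galore, Bowtie2, SEACR, DiffBind and deepTools were used with the build mm10. The sources used here give no versions, no role for each tool and no use of the yeast spike-in. The deposited levels are log2 values, 1 merged column per group, per the file headers. Each wild-type level equals, to rounding, a log2 of a scaled value plus 1. That value is the normalized reads divided by the squared width of the region, scaled by 2 to the power of 22.2. For the other genotypes, which have no deposited read concentrations to compare with, the same relation was assumed. The levels were therefore compared only within a region, and converted to normalized reads to show depth. The deposited p-values and FDR cover the wild-type transition only. The authors' deposited log2 folds of H3K27ac and RNA were used as given, and 14 columns of other measures were not used.

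With 1 value per group no test could be made, and depth limits what the values show: differences under 32 normalized reads are imprecise. Differences of at least 2-fold were counted over 186824 regions with levels. Named regions were up to 5 per comparison and direction with the largest difference. These were chosen among regions at least 2-fold apart with at least 32 reads in 1 group. Some, but not all, regions of Hist2, Hist3, Hist4 and H1 genes were named as well. The members and gene lists were chosen with earlier results of these data known. CpG density and repeated 32-base words came from the GRCm38 genome, whose chromosome names and lengths were compared with the table, and gene positions from GENCODE vM21. Symbols of all 54 member genes were matched to RefSeq through synonyms and overlap. The analysis used Python and pandas and was tested on simulated data. Alternatives were centring, a ratio without the added 1, a minimum of 32 reads, a 5 kb distance limit, and, chosen after seeing the data, leaving out pseudogene and testis genes or regions with over 10% repeated words.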

Additional observations from a re-analysis of the deposited data

Results flagged for a closer look

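The region chr13:23942543-23943359, 8.5 kb from Hist1h2aa, known as a testis-expressed H2A gene, moved in opposite directions in the transition. Its formative minus naive difference was 1.68 in wild type, 1.41 in the floxed line and 1.54 in dCD, and -1.25 in DKO. The reads behind it were 7.55 and 24.5 in naive and formative wild type, 9.98 and 26.8 in the floxed line, 5.91 and 17.5 in dCD, and 10.2 and 4.24 in DKO, all under 32. Each group has 1 merged value, and the difference between the lines was not tested.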

How the results depend on the processing

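Percentages here are shares of the member regions at least 2-fold higher or lower. After centring of every group on the median of all regions, the share higher was 15.6% in naive and 11.93% (from 6.422%) in formative DKO over the floxed line, and 27.52% and 32.11% in naive and formative dCD over wild type, where all regions had 8.061%, 11.15%, 6.805% and 10.78%. The share lower was 0% in these comparisons but formative DKO, where it stayed at 0.9174%, and all regions had 10.56%, 11.77%, 5.633% and 9.689%. In the floxed line over wild type the share higher became 1.835% in naive (from 0.9174%) and 0.9174% in formative cells (from 0%). With the distance limit at 5 kb, the share lower was 1.408% in the floxed transition and 0% in the transitions of wild type, DKO and dCD, in naive and formative DKO over the floxed line and in formative dCD over wild type, and the share higher was 0% in the DKO transition and 1.408% in that of dCD (from 2.752%). Counting only regions with at least 32 reads gave 0% higher in the transitions of the floxed line and dCD and in the naive floxed line over wild type, and 0% lower in the transitions of DKO and dCD and in formative DKO over the floxed line, and moved the share higher in the wild-type transition from 5.505% to 3.191% and the share lower in the naive floxed line over wild type from 1.835% to 1.075%. Among alternatives chosen after seeing the data, leaving out the pseudogene and testis genes gave 0% higher in the DKO transition, and 0% lower in the DKO and dCD transitions and in naive and formative DKO over the floxed line, 2.041% lower in the transitions of wild type (from 3.67%) and the floxed line (from 4.587%), and 4.082% higher in formative DKO over the floxed line. Leaving out regions with over 10% repeated words gave 0% lower in formative dCD over wild type and 2.941% lower in the floxed transition, and raised shares whose called regions all stayed, since fewer regions were counted. Most of these shares rest on 1 to 5 regions. The ratio of reads without the added 1 raised the share lower in naive DKO over the floxed line from 0.9174% to 2.752%, and left the other shares within 1.5 times. No named region reversed. Under centring, 5 of the 36 values of named regions crossed the threshold, among them -0.88 for Hist1h2al in naive DKO over the floxed line. The depth, a median of 52.1 to 88.3 reads per region, limits single regions more than medians. No paired analysis was possible because the table holds 1 merged column per group.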
